A study of Homo sapiens with 18 samples.

Results

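Gene expression was compared between 3 libraries labelled 3 days without doxycycline and 3 libraries kept with doxycycline, all from a single modified HAP1 line, which are 6 of the 18 libraries of the series. HAP1 is a human line with a nearly haploid genome that descends from KBM-7, a line from chronic myeloid leukaemia. The line carries a deletion labelled ∆SARS2 together with a SARS2-1xFLAG transgene, and both groups carry both alleles. The medium was IMDM, and doxycycline was kept at 15 ng/mL until it was withdrawn for the day 3 group. The sources used here do not say whether the line is 1 clone. The parental Hap1 line, whose labels name neither allele, was measured in 3 libraries without doxycycline and 3 libraries with it. The labels do not give the days without the drug in the parental line. As labelled, the comparison addresses early changes after doxycycline is removed from this line.

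SARS2 is the seryl-tRNA synthetase of mitochondria, which loads serine onto mitochondrial transfer RNAs so that the organelle can translate the respiratory chain subunits of its own genome. When mitochondrial translation or respiration fails, cells are known to raise ATF4, a transcription factor that drives amino acid transport and synthesis. Cells also read glucose use through MondoA, a factor that switches on TXNIP when glucose phosphates build up, and read nutrient supply through mTORC1, a kinase that promotes ribosome production and restrains autophagy.

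The 3 libraries labelled day 3 held 81473076, 93373304 and 90732050 counts, and the 3 doxycycline libraries held 89150168, 80609178 and 66850705. Doxycycline replicate 3, the smallest library, stood furthest apart: the mean chi-square per gene, which is about 1 for counting noise alone, was 22.4 and 20.2 against its own replicates and 4.97 to 7.91 for the other 4 pairs within the 2 groups. Markers of other cell types were mostly low. Of 18 haematopoietic markers, 16 lay under 1 CPM (reads of a gene scaled to the size of its library) in all 6 libraries and 7 were at 0, among them ITGAX, GATA1, HBG1, HBG2, CD3E and MPO. Their summed level was 55.8 to 60.2 CPM in the libraries labelled day 3 and 44.5 to 48.6 CPM with doxycycline, nearly all of it GATA2, a progenitor factor that rose (log2 fold change 0.32, adjusted p 0.00677). Of 14 epithelial markers 8 lay under 1 CPM, with KRT5, KRT14 and KRT19 at 0, and the sums were 61.1 to 65.0 CPM labelled day 3 and 54.0 to 59.95 CPM with doxycycline. Of 16 mesenchymal markers 7 lay under 1 CPM, with COL1A2, DCN and LUM at 0, and the sums, mostly VIM, were 846 to 870 CPM labelled day 3 and 786 to 854 CPM with doxycycline. Of 8 endothelial markers 7 lay under 1 CPM, with PECAM1 and TEK at 0, and the sums were 5.15 to 6.57 CPM labelled day 3 and 4.63 to 6.74 CPM with doxycycline. The part of these markers in the results was not tested. In bulk RNA, fewer cells of a type and less RNA per cell cannot be told apart.

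The count of the targeted gene was not lower in the libraries labelled day 3. SARS2 had 30.5, 31.9 and 32.4 CPM in the libraries labelled day 3, against 23.5, 25.2 and 23.9 CPM with doxycycline. The libraries labelled day 3 were all higher, with a log2 fold change of 0.38 (SE 0.10, adjusted p 0.0139), and the call was lost without day 3 replicate 2 (adjusted p 0.0511), day 3 replicate 3 (0.0621) or doxycycline replicate 1 (0.0661). Reads of the transgene and of the locus itself would share 1 gene name, so the count does not separate them. MRPS12, the divergent neighbour of SARS2 that encodes a protein of the mitochondrial ribosome, had 48.8, 51.1 and 48.5 CPM in the libraries labelled day 3, against 41.4, 39.4 and 49 CPM with doxycycline, and the groups overlapped (adjusted p 0.404). In the parental line SARS2 had 39.9 ± 3.03 CPM without doxycycline and 44.3 ± 1.67 CPM with it (SD, n = 3 each). In the SARS2 line it had 24.7 ± 1.30 CPM labelled day 6 and 41.8 ± 7.16 CPM labelled day 9 (SD, n = 3 each). No group of that line without doxycycline had a mean below the 24.2 CPM with doxycycline. The SARS2 count therefore does not check the label of any day. All directions below are those of the libraries as labelled.

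Of 59251 genes in the tables, 21615 passed the filter on low counts and were tested with edgeR's quasi-likelihood test. At a Benjamini-Hochberg adjusted p under 0.05, 1405 genes rose (6.5% of those tested) and 1484 fell (6.87%), 13.4% in all, and 6154 (28.5%) had an unadjusted p under 0.05. Most changes were small: the median size among called genes was 0.41 on the log2 scale for rises and 0.44 for falls, and 69.7% of the rises and 64.0% of the falls were under 1.5-fold. Rises of at least 2-fold numbered 200 (0.925% of genes tested) and falls of that size 207 (0.958%). Protein-coding genes made up 1145 of the rises and 1207 of the falls. Over all genes tested, the 3 libraries labelled day 3 lay wholly above the 3 doxycycline libraries in 20.4% and wholly below them in 21.6%. Among called genes, the groups did not overlap for 99.4% of the rises and 98.45% of the falls. A statement below that groups did not overlap therefore adds little to the call of a gene. Fewer genes were called when a library was left out, which also lowers the power of the test. The number was 1972, 1334 and 1107 without day 3 replicate 1, 2 or 3. It was 1136, 1408 and 2620 without doxycycline replicate 1, 2 or 3. In all 6 of these fits, 436 of the 1405 rises and 443 of the 1484 falls held. A gene named below as having risen or fallen held in all 6 unless the text says otherwise. Where 6 counts follow the count of a gene list, they are those from these 6 fits, in the order just given. The members, lists and their counts are descriptions: a list is set against 6.5% and 6.87% of all genes and against a median log2 fold change of -0.002 over all genes tested.

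**Figure D1:**
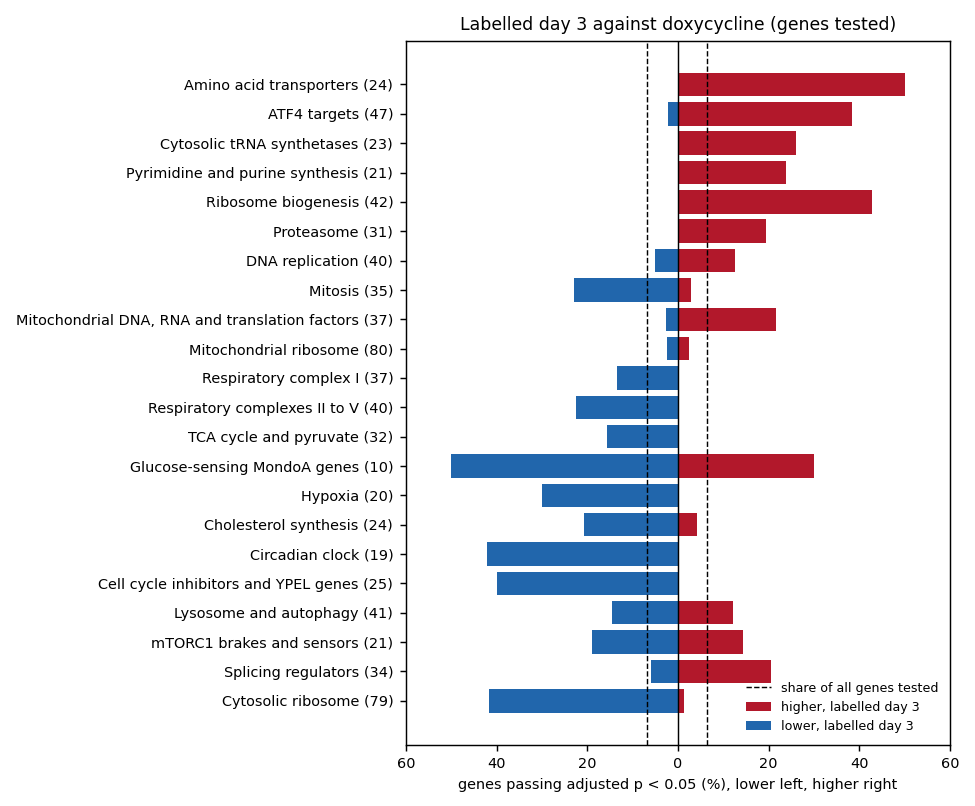
Percentage of the tested genes of each list that passed an adjusted p under 0.05, rising (red, right) or falling (blue, left) in the 3 libraries labelled day 3 against the 3 doxycycline libraries; the number of genes tested is in parentheses and dashed lines mark 6.5% and 6.87% of all genes tested. Amino acid transporters and ribosome biogenesis genes lie to the right. Clock genes, the list of cell cycle inhibitors and YPEL genes, and cytosolic ribosomal proteins lie to the left.

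Several targets of the glucose sensor MondoA fell. TXNIP, an arrestin-fold protein that restrains glucose uptake and binds thioredoxin, had 8.67, 9.26 and 8.88 CPM in the libraries labelled day 3, against 28.1, 29.6 and 17.9 CPM with doxycycline. The 3 values labelled day 3 lay close together and below the lowest doxycycline library, which was replicate 3. It fell, with a log2 fold change of -1.50 (SE 0.16, adjusted p 5.38e-05). ARRDC4, the arrestin-fold relative that is controlled with TXNIP, had 7.13, 5.64 and 5.93 CPM in the libraries labelled day 3, against 11.1, 11.2 and 9.38 CPM with doxycycline, and it fell by 0.76 on the log2 scale (SE 0.11, adjusted p 3.21e-04). KLF10, a zinc-finger repressor that MondoA also drives, fell (log2 fold change -0.46, adjusted p 0.00236). Of the 10 genes of this list, 5 fell (5, 3, 3, 5, 5 and 3 in the 6 fits) and 3 rose (1, 0, 0, 0, 0 and 2), with a median log2 fold change of -0.37. The 3 that rose were HK2, a hexokinase gene, and the genes of MondoA itself (MLXIP) and of its binding partner MLX. The other two that fell were ARRDC3, an arrestin-fold gene, and TXN, the thioredoxin gene. These 5 lost the call in at least 3 of the 6 fits.

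MondoA is known to bind a carbohydrate response element, a pair of E-box-like sites with 5 bases between them. The letters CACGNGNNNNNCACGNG, on either strand, occurred within 250 bases before the start of 16 of 27305 annotated promoters (0.0586%) and of 14 of 14347 tested genes with a promoter entry (0.0976%). Among the 4 of the 5 falling genes with an entry, TXNIP held a match and the others held none. The TXNIP promoter is shown because its transcript fell most in the list. It lies on the minus strand at chr1:145996580-145996829 (GRCh38.p14, RefSeq), is written 5′ to 3′ up to the base before the start, and has its match in capitals, 88 bases before the start.
TXNIP: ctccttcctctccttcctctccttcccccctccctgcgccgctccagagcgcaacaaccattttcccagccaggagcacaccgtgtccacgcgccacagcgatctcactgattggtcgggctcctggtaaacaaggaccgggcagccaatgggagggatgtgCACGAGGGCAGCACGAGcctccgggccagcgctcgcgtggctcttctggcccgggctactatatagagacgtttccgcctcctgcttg

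Several genes of the daily clock fell. Of 19 tested clock genes 8 fell and none rose (8, 7, 6, 5, 6 and 9 falls in the 6 fits), with a median log2 fold change of -0.27. TEF, a PAR-domain output factor of the clock, had 6.97, 7.72 and 6.77 CPM in the libraries labelled day 3, against 19.3, 17.7 and 13.7 CPM with doxycycline, and every value labelled day 3 lay below every doxycycline value. It fell with a log2 fold change of -1.24 (SE 0.15, adjusted p 1.59e-04). DBP, its close relative, had 13.2, 12.2 and 12.9 CPM in the libraries labelled day 3, against 35.5, 30.4 and 24.1 CPM with doxycycline, again without overlap, and fell (log2 fold change -1.23, adjusted p 9.05e-04). RORA, a nuclear receptor that activates BMAL1 transcription, fell (log2 fold change -0.67, adjusted p 0.00422). NR1D2, a nuclear receptor that represses the same gene, fell too (log2 fold change -0.49, adjusted p 0.00192). PER2, a core repressor of the clock, fell (log2 fold change -0.46, adjusted p 0.00234). The other three called genes, NR1D1, CRY2 and PER1, lost the call in at least 1 of the 6 fits. The E-box letters CACGTG, which the CLOCK and BMAL1 pair is known to bind, stood in the 250 bases before 2 of the 8 falling genes (TEF and PER1), against 8.37% of tested genes with an entry. The TEF promoter is shown because TEF had the lowest p of the clock genes. It lies on the plus strand at chr22:41367205-41367454 (GRCh38.p14, RefSeq), with the E-box in capitals 195 bases before the start.
TEF: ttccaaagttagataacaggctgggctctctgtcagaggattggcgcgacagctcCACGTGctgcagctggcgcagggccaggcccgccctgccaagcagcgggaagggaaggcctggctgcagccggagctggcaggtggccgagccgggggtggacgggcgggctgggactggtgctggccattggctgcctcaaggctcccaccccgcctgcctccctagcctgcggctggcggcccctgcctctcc

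Some genes that are known to be raised in resting cells fell. Of 25 tested inhibitors of cell division and related genes 10 fell and none rose (6, 6, 5, 5, 5 and 8 falls in the 6 fits), with a median log2 fold change of -0.28. YPEL1, of the yippee-like family, had 10.5, 9.41 and 9.66 CPM in the libraries labelled day 3, against 20.6, 19.6 and 17.1 CPM with doxycycline, and the groups did not overlap. It fell with a log2 fold change of -0.96 (SE 0.10, adjusted p 3.40e-05). YPEL5, a subunit of the CTLH ubiquitin ligase, fell (log2 fold change -0.76, adjusted p 0.00333). So did KLF9, a repressor that responds to steroids and stress (log2 fold change -0.58, adjusted p 0.00381). BTG2, an antiproliferative adaptor of the messenger RNA deadenylase, fell as well (log2 fold change -0.54, adjusted p 6.14e-04). TXNIP belongs to this list too. FOS, the immediate early gene, had 1.67, 1.49 and 1.29 CPM in the libraries labelled day 3, against 4.5, 5.22 and 1.92 CPM with doxycycline, with the lowest doxycycline value again in replicate 3, and fell (log2 fold change -1.40, adjusted p 0.00532). On the cycle itself, FOXM1, the transcription factor of the G2 phase, rose (log2 fold change 0.33, adjusted p 8.89e-04). CDC25C, a phosphatase that starts mitosis, fell (log2 fold change -0.42, adjusted p 8.80e-04), and so did PTTG1, the securin (log2 fold change -0.41, adjusted p 0.00172). Of 35 mitosis genes 8 fell (4, 3, 2, 3, 2 and 6) and 1 rose (1 in each fit), with a median of -0.06. Of 40 DNA replication genes 5 rose (4, 2, 2, 2, 2 and 7) and 2 fell (1, 1, 1, 0, 1 and 2), among the rises the polymerase subunit POLE (log2 fold change 0.33, adjusted p 0.00684) and the helicase subunit GINS3 (log2 fold change 0.46, adjusted p 0.00688).

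**Figure D2:**
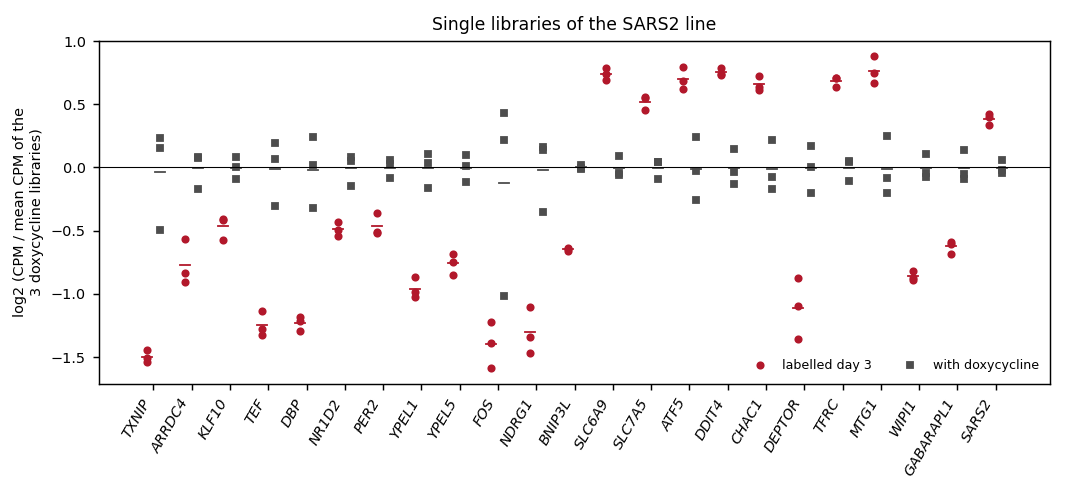
Log2 of the CPM of single libraries over the mean CPM of the 3 doxycycline libraries of the SARS2 line, for 23 genes; red circles are the libraries labelled day 3, grey squares the doxycycline libraries, and short lines the mean of each 3 log2 values. SLC6A9, DDIT4 and TFRC lie above and TXNIP, TEF and YPEL1 below the doxycycline libraries without overlap, and doxycycline replicate 3 is the low grey square for TXNIP and FOS.

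Several targets of the hypoxia factor HIF fell. Of 20 tested targets on the list used here 6 fell and none rose (5 falls in each of the 6 fits), with a median log2 fold change of -0.16. This list leaves out SLC2A1, DDIT4 and HK2, which rose and were counted in other lists. NDRG1, a stress-responsive differentiation gene, had 2.81, 3.33 and 2.58 CPM in the libraries labelled day 3, against 7.99, 7.83 and 5.58 CPM with doxycycline, and fell with a log2 fold change of -1.30 (SE 0.23, adjusted p 0.00146). BNIP3L, a receptor for the removal of mitochondria by autophagy, had 48.5, 47.7 and 48.4 CPM in the libraries labelled day 3, against 76.4, 75 and 74.8 CPM with doxycycline, with a spread in each group far smaller than the gap, and fell (log2 fold change -0.65, adjusted p 0.00102). MXI1, an antagonist of MYC, fell (log2 fold change -0.41, adjusted p 0.00407). P4HA2, a collagen prolyl hydroxylase gene, fell (log2 fold change -0.36, adjusted p 0.00371), as did PDK1, a kinase that inhibits pyruvate dehydrogenase (log2 fold change -0.35, adjusted p 0.00406). Among 24 glycolysis genes 3 rose (3, 1, 1, 1, 1 and 4) and 1 fell (1 in each fit). ALDOC, the brain-type aldolase, had 7.79, 7.57 and 8.5 CPM in the libraries labelled day 3, against 18.1, 16.9 and 13.9 CPM with doxycycline, and fell (log2 fold change -1.04, adjusted p 0.00667). SLC2A1, a widespread glucose carrier of the plasma membrane, rose (log2 fold change 0.52, adjusted p 0.00669). BNIP3L, NDRG1 and ALDOC rose in the parental line without doxycycline (log2 fold changes of 0.82, 2.04 and 2.32).

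Several amino acid carriers of the plasma membrane rose. Of 24 tested carriers 12 rose and none fell (11, 6, 7, 8, 8 and 10 rises in the 6 fits), with a median log2 fold change of 0.25. SLC6A9, a glycine carrier, had 24.6, 25.5 and 26.3 CPM in the libraries labelled day 3, against 14.7, 14.9 and 16.3 CPM with doxycycline, and rose with a log2 fold change of 0.74 (SE 0.09, adjusted p 1.59e-04). SLC7A5, the large neutral amino acid exchanger, had 335, 360.3 and 358 CPM in the libraries labelled day 3, against 252, 229.9 and 252 CPM with doxycycline, and rose (log2 fold change 0.52, adjusted p 1.08e-04). SLC38A1, a glutamine carrier, rose (log2 fold change 0.47, adjusted p 0.0026), as did its relative SLC38A2, which is known to respond to amino acid shortage (log2 fold change 0.36, adjusted p 8.68e-04). SLC38A5, another carrier of the family, rose (log2 fold change 0.40, adjusted p 0.00438). SLC7A6, an exchanger of cationic amino acids, rose (log2 fold change 0.41, adjusted p 0.00226). All 3 libraries labelled day 3 lay above all 3 doxycycline libraries for each of these 6 genes.

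Carriers are among the known targets of ATF4, and 18 of 47 ATF4 targets rose (17, 11, 13, 14, 13 and 18) while 1 fell (0, 0, 0, 0, 0 and 1). ATF4 itself rose (log2 fold change 0.25, adjusted p 0.00911), and the values labelled day 3 (473 to 484 CPM) and with doxycycline (400 to 401 CPM) lay far apart, although the call was lost when the replicate block was combined with the removal of the length and span trend. ATF5, its relative in the mitochondrial stress response, had 27.9, 31.5 and 29.2 CPM in the libraries labelled day 3, against 17.8, 15.2 and 21.5 CPM with doxycycline, and rose (log2 fold change 0.70, adjusted p 0.00132). DDIT4, an inhibitor of mTORC1, rose (log2 fold change 0.75, adjusted p 0.00322). SESN2, a leucine sensor that also restrains mTORC1, rose (log2 fold change 0.42, adjusted p 0.00117). PSAT1, an enzyme of serine synthesis, had 243, 248 and 241 CPM in the libraries labelled day 3, against 175, 173 and 197 CPM with doxycycline, without overlap, and rose (log2 fold change 0.43, adjusted p 3.20e-04). GPT2, the mitochondrial alanine aminotransferase, rose (log2 fold change 0.34, adjusted p 0.00213). Several classical targets did not pass the test: ASNS, asparagine synthetase, had 5.61, 4.21 and 3.73 CPM in the libraries labelled day 3, against 5.11, 6.23 and 3.56 CPM with doxycycline, overlapping (log2 fold change -0.14, adjusted p 0.684). DDIT3, the stress factor CHOP, was at a log2 fold change of 0.09 (SE 0.12, adjusted p 0.668), and GDF15, a secreted stress signal, at a log2 fold change of -0.44 (SE 0.36, adjusted p 0.465). TRIB3, a pseudokinase, passed (log2 fold change 0.36, adjusted p 0.0132) and lost the call without day 3 replicate 2 or doxycycline replicate 1 or 2 (adjusted p 0.0716, 0.0516 and 0.0811). In the urea cycle branch, ASS1, argininosuccinate synthetase, fell (log2 fold change -0.73, adjusted p 1.59e-04).

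ATF4 with its partners is known to bind the element TGATGNAA. These letters occurred in the 250 bases before 1 of the 15 rising ATF4 targets with a promoter entry, CHAC1, and before 1.60% of tested genes with an entry. CHAC1, a glutathione-degrading enzyme named here after its values were seen because of that match, had 17.5, 18.9 and 17.7 CPM in the libraries labelled day 3, against 10.9, 10.2 and 13.3 CPM with doxycycline, and rose (log2 fold change 0.66, adjusted p 0.00297). Its promoter lies on the plus strand at chr15:40953221-40953470 (GRCh38.p14, RefSeq), with the match in capitals on the other strand, 209 bases before the start.
CHAC1: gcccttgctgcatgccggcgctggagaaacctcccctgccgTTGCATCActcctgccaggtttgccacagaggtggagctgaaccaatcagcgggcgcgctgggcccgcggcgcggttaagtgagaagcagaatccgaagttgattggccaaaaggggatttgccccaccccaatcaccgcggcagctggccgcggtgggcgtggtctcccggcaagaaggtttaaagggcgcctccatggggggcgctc

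The sensors and brakes of mTORC1 moved in both directions. Of 21 tested genes 3 rose (3 in each of the 6 fits) and 4 fell (4, 2, 2, 2, 2 and 3). Beside DDIT4 and SESN2, the kinase gene MTOR rose (log2 fold change 0.30, adjusted p 0.00501). DEPTOR, a subunit that inhibits the kinase, had 5.09, 4.36 and 3.63 CPM in the libraries labelled day 3, against 10.5, 9.35 and 8.11 CPM with doxycycline, without overlap, and fell with a log2 fold change of -1.10 (SE 0.16, adjusted p 3.64e-04). SESN3, a FOXO-driven sestrin, fell (log2 fold change -0.54, adjusted p 0.00658).

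Several genes for nucleotide supply and ribosome assembly rose. Of 21 tested genes of pyrimidine and purine synthesis 5 rose and none fell (5, 3, 3, 3, 3 and 7). CAD, the enzyme of the first steps of pyrimidine synthesis, had 309.7, 308 and 329.5 CPM in the libraries labelled day 3, against 225, 226 and 236 CPM with doxycycline, without overlap, and rose (log2 fold change 0.46, adjusted p 5.60e-04). UMPS, which completes uridine monophosphate, rose (log2 fold change 0.48, adjusted p 0.00172), as did PFAS, an enzyme of purine synthesis (log2 fold change 0.51, adjusted p 0.00764). Of 42 ribosome biogenesis genes 18 rose and none fell (12, 7, 6, 5, 6 and 19), with a median of 0.30, while of 79 cytosolic ribosomal protein genes 33 fell (18, 13, 8, 17, 17 and 10) and 1 rose (0, 0, 0, 0, 0 and 1), with a median of -0.22. RRP12, a factor for export of ribosomal subunits, rose (log2 fold change 0.58, adjusted p 0.00729). NOP2, a methylase of ribosomal RNA, rose (log2 fold change 0.54, adjusted p 0.00242). POLR1A, the largest subunit of RNA polymerase I, rose (log2 fold change 0.48, adjusted p 0.00669), and so did MYBBP1A, a nucleolar protein (log2 fold change 0.48, adjusted p 0.00152). RPS3A, a protein of the small subunit, had 777, 765 and 733 CPM in the libraries labelled day 3, against 913, 976 and 1088 CPM with doxycycline, and fell (log2 fold change -0.39, adjusted p 0.00205), and RPL31, of the large subunit, fell (log2 fold change -0.41, adjusted p 0.00626). After the trend of each library over gene length and span was removed, 12 of the 79 fell and the median was -0.19. Ribosomal protein genes have many processed pseudogenes, and their counts are uncertain to that extent. Small nucleolar RNA genes, many of which sit in introns of such genes, had a median log2 fold change of 0.26 over 258 genes. Of these, 6.98% rose, near the 6.5% of all genes tested, and 0.775% fell, against 6.87%. Of 22 host genes of small nucleolar RNAs 1 rose (1, 0, 0, 0, 0 and 1) and 2 fell (1, 0, 0, 0, 0 and 0), with a median of -0.03.

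Protein synthesis and turnover showed a few larger single changes. EIF4G1, the scaffold of cap-dependent initiation, had 936, 950.2 and 999.95 CPM in the libraries labelled day 3, against 675, 648 and 716 CPM with doxycycline, and rose (log2 fold change 0.50, adjusted p 4.07e-04). EIF4A3, the helicase of the exon junction complex, rose (log2 fold change 0.34, adjusted p 0.00556), as did the methionyl-tRNA synthetase gene MARS1 (log2 fold change 0.31, adjusted p 0.00684), 1 of 6 rises among 23 cytosolic synthetase genes (5, 1, 1, 1, 1 and 9). Of 31 proteasome genes 6 rose and none fell (6, 3, 3, 2, 3 and 6), among them the ATPase PSMC4 (log2 fold change 0.42, adjusted p 0.00314) and the base subunit PSMD2 (log2 fold change 0.38, adjusted p 2.74e-04). Of 34 splicing regulators 7 rose (5, 4, 3, 4, 4 and 7) and 2 fell (0 in each fit). HNRNPM, a splicing silencer, had 769.6, 832 and 869 CPM in the libraries labelled day 3, against 479, 491 and 619 CPM with doxycycline, and rose (log2 fold change 0.64, adjusted p 0.00556). CLK1, a kinase of SR proteins, rose (log2 fold change 0.66, adjusted p 0.00199), as did the SR protein gene SRSF6 (log2 fold change 0.50, adjusted p 0.00118).

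Nuclear genes of mitochondria moved in both directions. Of 37 factors for mitochondrial DNA, RNA and translation 8 rose (6, 3, 3, 2, 3 and 9) and 1 fell (1, 0, 0, 1, 0 and 1), with a median log2 fold change of 0.10. MTG1, a GTPase that helps assemble the mitochondrial ribosome, had 58.7, 62 and 67.9 CPM in the libraries labelled day 3, against 32.1, 34.9 and 43.8 CPM with doxycycline, and rose with a log2 fold change of 0.77 (SE 0.13, adjusted p 0.00106). SUPV3L1, the RNA helicase of the mitochondrial degradosome, rose (log2 fold change 0.29, adjusted p 0.00565). Of 20 mitochondrial tRNA synthetase genes 4 rose (4, 1, 2, 1, 2 and 4), SARS2 among them, and 1 fell (0 in each fit). AARS2, the mitochondrial alanyl-tRNA synthetase, had 60.1, 59.96 and 67.2 CPM in the libraries labelled day 3, against 45, 42.9 and 50.4 CPM with doxycycline, and rose (log2 fold change 0.44, adjusted p 0.00556). In the import machinery, TIMM44, which ties the import motor to the inner membrane, rose (log2 fold change 0.30, adjusted p 0.00171), and TOMM20, a receptor on the outer membrane, fell (log2 fold change -0.31, adjusted p 0.00719). Some nuclear genes of respiratory chain subunits fell. Of 37 complex I genes 5 fell and none rose (3 falls in each of the 6 fits), with 29 of 37 log2 fold changes below 0. Of 40 genes of complexes II to V 9 fell and none rose (5, 2, 1, 6, 2 and 1), with 36 of 40 below 0 and a median of -0.15. NDUFA13, an accessory subunit of complex I, fell (log2 fold change -0.33, adjusted p 0.00179). NDUFS7, a core subunit, fell (log2 fold change -0.27, adjusted p 0.00462), and so did SDHC, a membrane anchor of succinate dehydrogenase (log2 fold change -0.25, adjusted p 0.00422). With the length and span trend removed, 3 of the complex I genes and 4 of those of complexes II to V fell, with medians of -0.03 and -0.08. The 80 genes of the mitochondrial ribosome had 2 rises (0, 0, 0, 0, 0 and 4) and 2 falls (0, 1, 0, 1, 1 and 0). NIPSNAP1, a mitochondrial protein that can flag damaged organelles for removal, had 120.2, 116 and 114 CPM in the libraries labelled day 3, against 197, 179 and 171 CPM with doxycycline, without overlap, and fell (log2 fold change -0.65, adjusted p 7.01e-05). SFXN2, a sideroflexin of mitochondria, rose (log2 fold change 0.96, adjusted p 0.00113). All 37 mitochondrially encoded genes were listed at 0 counts, so the transcripts of the organelle itself were not analysed here.

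Lysosome and autophagy genes were split between rises and falls. Of 41 tested genes 6 fell (5 in each of the 6 fits) and 5 rose (4, 2, 2, 1, 2 and 6), with a median of -0.03. Log2 fold changes were above 0 for 20 of them and below 0 for 21. The genes named in this paragraph all fell, although 1 of the 5 rises held in all 6 fits. WIPI1, a phosphoinositide-binding protein of the early autophagosome, had 8.95, 8.58 and 8.51 CPM in the libraries labelled day 3, against 17, 15.3 and 14.9 CPM with doxycycline, and fell with a log2 fold change of -0.86 (SE 0.11, adjusted p 2.31e-04). GABARAPL1, an ATG8 family protein, had 34.6, 34.9 and 32.7 CPM in the libraries labelled day 3, against 57.6, 50.6 and 49.1 CPM with doxycycline, without overlap, and fell (log2 fold change -0.62, adjusted p 9.35e-04). NBR1, a cargo receptor, fell (log2 fold change -0.45, adjusted p 0.00148), as did ATG12, part of the conjugation system (log2 fold change -0.35, adjusted p 0.00418). CHMP2A, an ESCRT-III protein that closes membranes, had 78.4, 76.6 and 74.9 CPM in the libraries labelled day 3, against 124, 117 and 125 CPM with doxycycline, and fell (log2 fold change -0.67, adjusted p 1.08e-04).

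Among carriers of metals and drugs, TFRC, the transferrin receptor for iron uptake, had 299, 315 and 316 CPM in the libraries labelled day 3, against 179.7, 199 and 200.1 CPM with doxycycline, and rose with a log2 fold change of 0.68 (SE 0.12, adjusted p 0.00122). SLC39A14, a carrier of zinc, iron and manganese, rose (log2 fold change 0.44, adjusted p 2.05e-04), and the zinc importer SLC39A10 fell (log2 fold change -0.42, adjusted p 0.00104). Of 12 genes of vaults and drug efflux 4 rose (3, 3, 3, 2, 2 and 4) and 1 fell (1 in each fit). The efflux pump genes ABCB1 (log2 fold change 0.44, adjusted p 0.00314) and ABCC5 (log2 fold change 0.35, adjusted p 0.00498) rose, while MVP, the major vault protein, had 1.4, 1.43 and 1.08 CPM in the libraries labelled day 3, against 6.89, 6.24 and 3.17 CPM with doxycycline, again lowest with doxycycline in replicate 3, and fell (log2 fold change -2.06, adjusted p 2.23e-04). Of 24 cholesterol synthesis genes 5 fell (3, 2, 2, 2, 2 and 6) and 1 rose (1, 0, 0, 0, 0 and 0), with 20 of 24 log2 fold changes below 0 and a median of -0.26. FDFT1, squalene synthase, had 329, 326 and 323 CPM in the libraries labelled day 3, against 512, 478 and 429 CPM with doxycycline, and fell (log2 fold change -0.54, adjusted p 0.00717), as did FDPS, which makes farnesyl diphosphate (log2 fold change -0.34, adjusted p 0.00308).

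Signalling and surface genes moved in both directions. BMP7, a secreted growth factor, had 0.414, 0.474 and 0.475 CPM in the libraries labelled day 3, against 1.4, 1.32 and 1.52 CPM with doxycycline, without overlap, and fell with a log2 fold change of -1.63 (SE 0.17, adjusted p 4.94e-05). Of 21 Notch pathway genes 3 fell (2, 2, 2, 2, 2 and 3) and 1 rose (1 in each fit). DLK1, a relative of the Notch ligands, had 0.548, 0.355 and 0.795 CPM in the libraries labelled day 3, against 2.05, 1.93 and 1.29 CPM with doxycycline, and fell (log2 fold change -1.64, adjusted p 3.29e-04). HES1, a target of the pathway, fell (log2 fold change -0.69, adjusted p 2.74e-04), and the receptor gene NOTCH1 rose (log2 fold change 0.35, adjusted p 0.00506). MET, the hepatocyte growth factor receptor, had 73.9, 76.4 and 71.9 CPM in the libraries labelled day 3, against 41.2, 44.5 and 53.4 CPM with doxycycline, and rose (log2 fold change 0.68, adjusted p 2.14e-04). ETV1, an ETS factor of growth factor signalling, rose (log2 fold change 0.88, adjusted p 0.00438). NFKB1, which encodes a subunit of NF-kB, rose (log2 fold change 0.51, adjusted p 4.07e-04). GJA1, a connexin of gap junctions, had 14.6, 17.1 and 15.1 CPM in the libraries labelled day 3, against 5.92, 7.45 and 8.7 CPM with doxycycline, and rose (log2 fold change 1.09, adjusted p 2.05e-04). Of 33 synaptic and neuronal genes 6 fell (5, 5, 5, 5, 5 and 6) and 3 rose (1, 1, 1, 1, 1 and 2). MAPT, the microtubule protein tau, fell (log2 fold change -0.63, adjusted p 0.00371). CAMK2N1, an inhibitor of a calcium-dependent kinase, fell (log2 fold change -0.51, adjusted p 0.00717), and the vesicle protein gene SYP rose (log2 fold change 0.67, adjusted p 0.00153). Of 18 galectin and annexin genes 5 fell (3, 3, 2, 3, 2 and 3) and 2 rose (2, 2, 1, 0, 1 and 2), and LGALS3, a sugar-binding galectin, was among the falls (log2 fold change -0.57, adjusted p 0.00249). Among targets of p53 4 of 23 rose (4, 4, 3, 2, 4 and 4) and 4 fell (3, 3, 2, 2, 2 and 2). TP53I3, a quinone reductase, rose (log2 fold change 0.82, adjusted p 0.00249), and CCNG1, cyclin G1, fell (log2 fold change -0.41, adjusted p 0.00354).

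Beyond the lists, the largest rises among genes of at least 5 CPM in 1 group included EME2, a subunit of a structure-specific nuclease (log2 fold change 1.03, adjusted p 1.07e-04), STS, steroid sulfatase (log2 fold change 0.97, adjusted p 0.00161), NCOA5, a nuclear receptor coregulator (log2 fold change 0.95, adjusted p 9.05e-04), PRKAR1B, a regulatory subunit of protein kinase A (log2 fold change 0.94, adjusted p 0.00467), EPDR1 (log2 fold change 0.92, adjusted p 8.38e-04) and LRRN3 (log2 fold change 0.99, adjusted p 3.20e-04). The largest falls included NELL1, a secreted factor of bone formation (log2 fold change -1.29, adjusted p 8.33e-05), NGEF, an exchange factor for small GTPases (log2 fold change -1.27, adjusted p 6.59e-04), the neuronal surface proteins LINGO3 (log2 fold change -1.24, adjusted p 9.35e-04) and IGLON5 (log2 fold change -1.14, adjusted p 0.00371), and ZP3, a zona pellucida glycoprotein gene (log2 fold change -1.31, adjusted p 4.94e-05). LOC124900647 also met the rule for the largest falls, but it had 0, 0.0323 and 0 CPM in the libraries labelled day 3 and 0.0448, 1.89 and 703 CPM with doxycycline, so that 1 library carried it, and the call was lost without that library or without day 3 replicate 2. Among the lowest p-values, the host gene of a microRNA, MIR22HG (log2 fold change 1.59, adjusted p 1.48e-04), the chromatin reader gene BRPF3 (log2 fold change 0.77, adjusted p 1.08e-04), ZBED3 (log2 fold change 0.88, adjusted p 2.14e-04) and the nucleolar kinase gene NOL9 (log2 fold change 0.60, adjusted p 2.36e-04) rose, and KCNQ1, a potassium channel gene, fell (log2 fold change -1.35, adjusted p 3.40e-05). MYC had 963, 862 and 904 CPM in the libraries labelled day 3, against 1190.2, 1197 and 995 CPM with doxycycline, and did not pass the test (log2 fold change -0.31, adjusted p 0.0603). The nuclear RNAs NEAT1 (log2 fold change -0.45, adjusted p 0.114) and MALAT1 (log2 fold change -0.33, adjusted p 0.108) did not pass either, nor did any of 10 common reference genes. The falls of MYC, NEAT1 and MALAT1 passed under several alternative settings, which are given below with the processing.

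Chromosome 3 stood apart from the other chromosomes. Of 1280 tested genes on it 171 rose (13.4%) and 38 fell (2.97%), against 6.07% and 7.11% of the genes on all others. The median log2 fold change of its genes was 0.09, with 62.0% above 0, against -0.01 and 48.7% for the others. Among genes of at least 3 CPM on average, the median log2 ratio to the mean of the doxycycline libraries, minus that of the other chromosomes, was 0.10, 0.09 and 0.09 in the libraries labelled day 3 and 0.02, 0.01 and -0.03 in the doxycycline libraries. In the parental libraries it was -0.20, -0.23 and -0.17 without doxycycline and -0.24, -0.23 and -0.23 with it. The shift was spread along the chromosome: 18.8% of its genes rose in the first 50 Mb, 11.7% from 50 to 100 Mb, 10.98% from 100 to 150 Mb and 10.2% beyond. On chromosome 16 the same difference of medians between the groups was 0.05, on chromosome 22 it was 0.04, and on all other chromosomes it was between -0.05 and 0.01. Without doxycycline replicate 3 the median of chromosome 3 genes was 0.07, and without each of the other libraries it was 0.09 to 0.10. The cause was not tested, and a change in the copies of the chromosome and a change in transcription cannot be told apart in these counts.

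**Figure D3:**
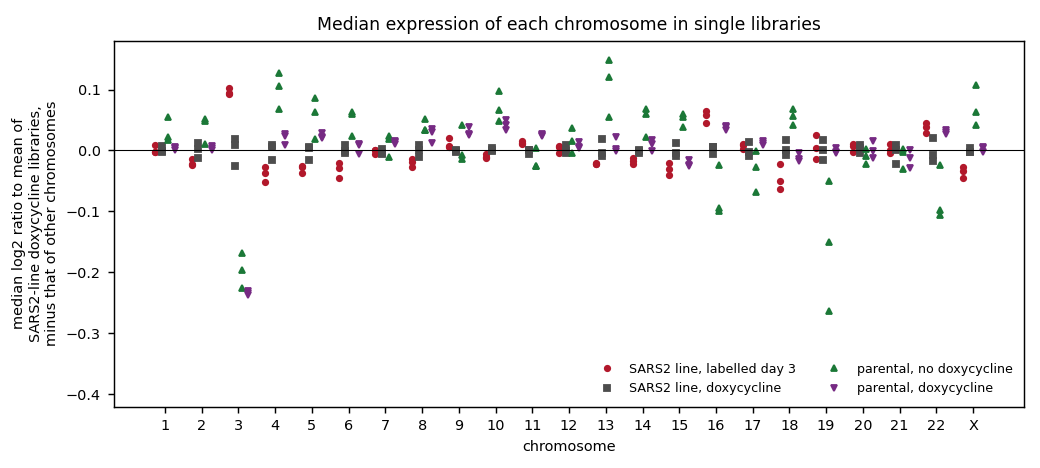
Median over the genes of each chromosome of the log2 ratio to the mean of the SARS2-line doxycycline libraries, minus the median of all other chromosomes; each point is 1 of 12 libraries, with the SARS2 line labelled day 3 (circles) and with doxycycline (squares) and the parental line without (upward triangles) and with doxycycline (downward triangles). On chromosome 3 the libraries labelled day 3 lie at 0.09 to 0.10, the doxycycline libraries near 0 and the parental libraries at -0.17 to -0.24.

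Several strong rises named here or above lie on chromosome 3. TFRC, EIF4G1, UMPS, PSMD2, ABCC5, GATA2 and AMIGO3 (log2 fold change 1.11, adjusted p 0.0021) are among them. So are ZBTB38, a methyl-DNA binding repressor (log2 fold change 0.72, adjusted p 2.36e-04), MME, the surface peptidase neprilysin (log2 fold change 0.60, adjusted p 1.59e-04), the long non-coding RNA DUBR (log2 fold change 0.88, adjusted p 2.05e-04), MOBP, a myelin protein gene (log2 fold change 1.03, adjusted p 0.00748), LRRC31 (log2 fold change 0.96, adjusted p 0.00656) and TCTA (log2 fold change 0.59, adjusted p 3.21e-04). These genes were named for a low p-value or a large change, so changes above the chromosome's median followed from that choice. NR1D2 and HES1 lie on the same chromosome and fell. With the genes of chromosome 3 left out of the fit, an alternative added after the shift was seen, 1300 genes rose and 1338 fell of 20335 tested.

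The longest genes fell more often than shorter genes did. Genes spanning 300 kb or more rose in 3.08% and fell in 13.1%, with a median log2 fold change of -0.11, whereas the medians of all shorter classes lay between -0.02 and 0.02. Over all genes the Spearman correlation of the change with span was -0.06, and the correlation of the parental change with span was 0.14. When the length and span trend was removed, 1469 genes rose and 1466 fell.

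More genes passed in the parental line without doxycycline than in the SARS2 line. Of the genes called in the libraries labelled day 3, most moved the opposite way in the parental line. Without doxycycline 4540 genes were higher (21%) and 3979 lower (18.4%) in the parental line, 39.4% in all. Of the 1405 genes that rose in the libraries labelled day 3, 764 fell in the parental line, 89 rose and 552 did not pass. Of the 1484 that fell, 930 rose in the parental line, 35 fell and 519 did not pass. No library is shared between these 2 comparisons. Across all genes tested, which are not independent of each other, the Spearman correlation of the changes was -0.38, and across the 2889 called genes it was -0.71. The change in the SARS2 line minus that in the parental line passed the test for 4012 genes upward (18.6%) and 4518 downward (20.9%), 39.5% in all.

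**Figure D4:**
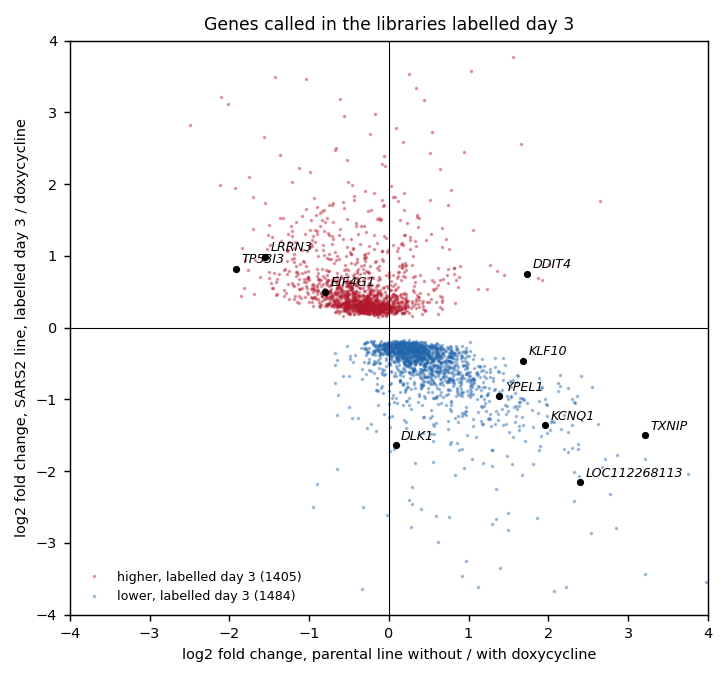
Log2 fold change of the SARS2 line labelled day 3 over doxycycline (vertical) against that of the parental line without over with doxycycline (horizontal) for the 1405 genes that rose (red) and the 1484 that fell (blue); named genes are black and 23 called genes lie beyond the axes, which end at 4. TXNIP and KLF10 lie at the lower right, TP53I3 and LRRN3 at the upper left, and DDIT4 at the upper right.

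Genes and lists differed in whether the lines moved in opposite directions. TXNIP averaged 8.94 ± 0.298 CPM labelled day 3 and 25.2 ± 6.36 CPM with doxycycline in the SARS2 line, against 171 ± 20.1 CPM without and 18.4 ± 1.22 CPM with doxycycline in the parental line (SD, n = 3 each). The difference of the 2 changes was -4.72 on the log2 scale (SE 0.23, adjusted p 5.43e-10). YPEL1 (difference -2.34), ARRDC4 (difference -2.30), KLF10 (difference -2.15), KCNQ1 (difference -3.31), ZP3 (difference -2.90), REPS2 (difference -2.81) and the non-coding RNA LOC112268113 (difference -4.56) fell in the SARS2 line and rose in the parental line. The genes that rose in the SARS2 line and fell in the parental line included TP53I3 (difference 2.73), LRRN3 (difference 2.54), GDAP1, a mitochondrial outer membrane protein (difference 2.16), TCTA (difference 1.79), IPO4, an importin (difference 1.65), SLC38A5 (difference 1.60), EIF4G1 (difference 1.30), MED22, a Mediator subunit (difference 1.08), and SLC20A1, a phosphate carrier (difference 0.95). Ribosome biogenesis moved in opposite directions in the lines: 18 of 42 rose in the libraries labelled day 3, 38 fell in the parental line, and the difference passed upward for 40. Of 31 proteasome genes 6 rose in the libraries labelled day 3, with a median log2 fold change of only 0.04, and 25 did not pass. In the parental line 23 of them fell, with a median of -0.27, and 18 differences passed upward. ATF4 targets did not move in opposite directions: 18 of 47 rose in the SARS2 line and 35 rose in the parental line. Their difference passed downward for 19 and upward for 1. SLC6A9, SESN2, PSAT1, GPT2 and ATF5 rose in both lines, with parental log2 fold changes of 0.74, 0.66, 0.38, 0.37 and 0.88, and their difference did not pass. Amino acid carriers, with 12 of 24 rises in the SARS2 line, had 9 rises and 3 falls in the parental line, and cytosolic tRNA synthetases, with 6 of 23 rises, had 10 rises and 6 falls. Cytosolic ribosomal protein genes, with 33 of 79 falls in the SARS2 line, had 4 rises and 11 falls in the parental line. Complex I genes, with 5 of 37 falls, had 4 rises and 10 falls there, as did those of complexes II to V, with 9 of 40 falls. Clock genes rose in 7 of 19 and fell in none in the parental line, and 11 differences passed downward. Inhibitors of cell division and related genes had 16 rises and 3 falls of 25 in the parental line. Their differences passed downward for 17 and upward for 2. Hypoxia targets had 13 rises and 1 fall of 20 there, and 13 differences passed downward and 1 upward.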

How the data were processed

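Gene-level RNA-seq of HAP1 cells was deposited by the authors as raw counts per gene, per the file headers, with 3 libraries in each of 6 groups. GRCh38 and the tools HISAT2, featureCounts (Subread), SAMtools, cutadapt 2.3 and DESeq2 are listed without roles in the submitters' processing notes, and the strand setting of the counting is not given. Since the labels do not call replicates separate cultures, the p-values cover only the spread among these libraries, possibly a technical one. In 1 table, 16 records broken across lines were rejoined, and 6 columns held in 2 tables were identical and used once.

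Counts were tested with edgeR 4.0.16 (R 4.3.3): filterByExpr, TMM scaling and a quasi-likelihood fit of all 18 libraries with 1 mean per group, followed by Benjamini-Hochberg adjustment over 21615 genes. CPM use the TMM-scaled library sizes. Each SE of a log2 fold change is its absolute value divided by the square root of the F statistic of that test. The script was tested on simulated data. Contrasts were day 3 over doxycycline, parental without over with doxycycline, and their difference. Alternatives were DESeq2 1.42.0, other scalings, no filter, a fit of only the groups compared, removal of each library's trend over gene length and span, a replicate block and leaving out each library. The members and the 66 gene lists were chosen with earlier results of these data known. Named genes were 13 preset ones, the 5 lowest p-values of each list among called genes, the 20 largest changes in each direction at 5 CPM or more without overlap, the 15 lowest p-values in each direction, and the 10 lowest p-values of the difference in each direction. Promoters are from RefSeq GRCh38.p14, and a promoter entry was matched by symbol for 14347 tested genes. The text names only part of the genes that met these rules.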

Additional observations from a re-analysis of the deposited data

Results flagged for a closer look

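The change in the SARS2 line labelled day 3 over doxycycline minus the change in the parental line without over with doxycycline was itself tested, and it passed an adjusted p under 0.05 (edgeR's quasi-likelihood test) for 8530 genes, 39.5% of those tested. Among genes also called in the libraries labelled day 3, genes chosen for the lowest p-values in each direction gave the following differences, all on the log2 scale. The difference was -4.72 for TXNIP, -4.56 for LOC112268113, -3.31 for KCNQ1 and -2.90 for ZP3. It was -2.81 for REPS2, -2.34 for YPEL1, -2.30 for ARRDC4 and -2.15 for KLF10. In the other direction it was 2.73 for TP53I3, 2.54 for LRRN3, 2.16 for GDAP1 and 1.79 for TCTA. It was 1.65 for IPO4, 1.60 for SLC38A5, 1.30 for EIF4G1, 1.08 for MED22 and 0.95 for SLC20A1. Each of these genes moved one way in the SARS2 line and the other way in the parental line. The days without the drug in the parental line are not in the labels, so a difference in time without doxycycline and a difference between the lines cannot be told apart.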

How the results depend on the processing

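The number of genes called between the libraries labelled day 3 and doxycycline was 2889. It was 6446 when only the 2 groups compared entered the fit, and 1107 to 2620 when each library was left out in turn. It was 2846 to 3784 under the other scalings, the DESeq2 test (3784) and no filter on low counts (3358). With the length and span trend removed it was 2935, and with chromosome 3 genes left out, chosen after seeing the data, it was 2638. The difference from the parental change passed for 8530 genes, and for 7400 to 8509 without each library. The parental comparison gave 8519 genes, and 6927 to 8266 without each library. The SARS2 fold change was 0.36 to 0.42 on the log2 scale without each library, and the call was lost in 3 of those 6 fits. Of the genes named with a value, ASNS ranged from -0.33 to 0.051 on the log2 scale without each library, turning above 0 (adjusted p 0.918) without doxycycline replicate 2. MYC passed without doxycycline replicate 3 (log2 fold change -0.39, adjusted p 0.0287) and under the DESeq2 test (adjusted p 0.0412). With edgeR's test, MYC, NEAT1 and MALAT1 each passed when only the 2 groups compared were fitted (adjusted p 0.00105, 0.0059 and 4.15e-05). They passed with no filter on low counts (adjusted p 3.56e-04, 0.0243 and 1.40e-04). With the length and span trend removed they passed too (adjusted p 0.0228, 0.0471 and 0.0308). With the replicate block added to that removal, the values were 0.0331, 0.0289 and 0.0355.

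The replicate numbers did not pair the samples: the deviations of same-numbered libraries correlated at 0.06, -0.10 and 0.02. With the replicate number as a block, 2674 genes passed between the libraries labelled day 3 and doxycycline, 2790 with the length and span trend removed as well, 8365 for the difference and 8421 in the parental line. Depth was 66850705 to 93373304 counts per library. DLK1 and BMP7 lay under 1 CPM in the libraries labelled day 3 and above it with doxycycline. Levels this low make a fold change less certain. The 37 mitochondrial genes could not be assessed.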

Other observations

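Of 18 tested heat shock genes 4 rose and none fell in the libraries labelled day 3, with 16 of 18 log2 fold changes above 0 and a median of 0.13, whereas the parental line without the drug had 1 rise and 17 falls. Without each library, in the order used above, the rises numbered 3, 1, 1, 1, 1 and 5. Targets of NRF2, the factor of the oxidative stress response, had 3 rises among 23 genes (2, 1, 1, 0, 2 and 3) and no falls, against 1 rise and 13 falls in the parental line. Genes of the extracellular matrix had 2 rises (1, 1, 1, 0, 1 and 1) and 3 falls (2, 1, 2, 1, 2 and 2) of 35 in the SARS2 line, and 17 rises and 4 falls in the parental line.

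Of 28 interferon genes 2 rose (2, 1, 1, 1, 1 and 2) and 1 fell (0 in each fit). Of 24 genes of the endoplasmic reticulum unfolded protein response 2 rose (1, 1, 0, 1, 1 and 1) and 2 fell (1, 1, 1, 0, 1 and 2). Of 26 actin and SRF targets 1 fell (0 in each fit). Fatty acid synthesis genes had 2 falls of 14 with all libraries, 0 without 5 of the 6 libraries in turn and 4 without doxycycline replicate 3. Fatty acid oxidation genes had 1 fall of 19 (0 in each fit). Replication-dependent histone genes had a median log2 fold change of 0.24 over 37 genes with 1 rise (1, 0, 0, 0, 0 and 2). That median was -0.05 without day 3 replicate 3 and 0.20 to 0.37 without each other library, and the summed level was 64.5 to 101 CPM in the libraries labelled day 3 and 69.0 to 73.1 CPM with doxycycline.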
